A study of Mus musculus with 9 samples.

Results

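The genes of the proteasome, the protease that degrades ubiquitin-tagged proteins, were described in lines of mouse mammary tumour cells that were wild type or knockout for Jak1, the gene of Janus kinase 1 (JAK1). They were taken as every row whose symbol starts with Psm, followed by a letter from a to g and a number, and whose mean over all libraries was 1 FPKM or more (fragments per kilobase of transcript, scaled to the mapped fragments of a library). Of 24346 genes in the table, 48 had such a symbol and 46 reached that level. The 5 interferon-induced subunits Psmb8, Psmb9, Psmb10, Psme1 and Psme2 were set against the other 41. The 2 genes below the level were Psma8, at most 0.0603 FPKM in any library, and Psmb11, at most 0.126 FPKM, which are known as subunits of testis and thymus proteasomes.

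All lines, wild type and knockout alike, were derived from MMTV-neu tumours on the FVB/N strain, where the promoter of mouse mammary tumour virus expresses the neu oncogene in mammary epithelium. Of 9 libraries of RNA from adherent cultures, 5 were labelled Jak1 wild type (45555, 47298, 45566B, 33373 and 33377) and 4 Jak1 knockout (45555, 47298, 45566B and 46295), and each library was the only one of its line and state. The titles of 45555, 47298 and 45566B name the states Wt and Cre, and the labels give puromycin treatment for these 3 lines alone. Line 46295 is titled D6. The labels name no separate cultures and do not say whether a knockout line is 1 clone. The p-values therefore speak only of spread between lines, in which technical spread cannot be told apart from differences between lines. The isogenic comparison took lines 45555 and 47298 and the panel 45566B, 33373, 33377 and 46295. The comparison over the 3 lines with both states shares libraries with each of them. In the isogenic and 3-line comparisons the spread was that of the knockout minus wild-type difference between lines. In the panel it was that among libraries of the same state, and the wild-type and knockout libraries of 45566B counted as independent.

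The core particle of the proteasome, called 20S, is a barrel of beta rings (Psmb genes) between alpha rings (Psma genes), and 3 of the beta subunits cut peptide bonds. Interferon makes cells replace the constitutive cutting subunits Psmb5, Psmb6 and Psmb7 by Psmb8, Psmb9 and Psmb10, which gives the immunoproteasome, and raises the activator PA28, a ring of Psme1 and Psme2. These forms are known for supplying peptides to major histocompatibility complex (MHC) class I molecules. The 19S cap, built from ATPases (Psmc) and non-ATPase subunits (Psmd), unfolds substrates, and Psmg genes encode chaperones that assemble the core. JAK1 relays signals from the interferon receptors to transcription factors, among them STAT2 and IRF9.

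The start regions of 4 induced subunits and of 1 constitutive counterpart are shown because the results turn on these genes, and because their letters differ in which known motifs they hold. The sequences are RefSeq's, on build GRCm38.p6, 250 bases before to 50 after the start site, and 39 of the 46 genes had an entry. Capitals mark a gamma-activated site (TTCNNNGAA) in Psmb8, an interferon-stimulated response element (GAAA, any 2 bases, GAAA, here read on the other strand) in Psme1 and an antioxidant response element (TGACNNNGC) in Psmb5. Psmb9 and Psmb10 held none of these letters. In the GENCODE annotation Psmb8, Psmb9 and Psme1 start before the regions shown, and the bases before those starts were not searched for these genes.
Psmb8, chr17:34197945-34198244, plus strand: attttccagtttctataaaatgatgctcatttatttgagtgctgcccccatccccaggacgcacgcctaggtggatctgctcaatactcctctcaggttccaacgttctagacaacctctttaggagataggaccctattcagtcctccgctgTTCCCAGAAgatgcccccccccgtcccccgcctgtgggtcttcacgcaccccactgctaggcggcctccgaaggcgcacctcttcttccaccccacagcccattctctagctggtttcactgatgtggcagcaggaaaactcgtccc
Psmb9, chr17:34187281-34187580, minus strand: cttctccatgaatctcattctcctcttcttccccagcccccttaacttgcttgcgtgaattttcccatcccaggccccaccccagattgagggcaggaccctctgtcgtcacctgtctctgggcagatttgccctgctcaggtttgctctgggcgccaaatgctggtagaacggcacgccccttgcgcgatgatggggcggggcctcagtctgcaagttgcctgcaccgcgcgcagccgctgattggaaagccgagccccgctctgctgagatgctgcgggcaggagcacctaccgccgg
Psmb10, chr8:105938343-105938642, minus strand: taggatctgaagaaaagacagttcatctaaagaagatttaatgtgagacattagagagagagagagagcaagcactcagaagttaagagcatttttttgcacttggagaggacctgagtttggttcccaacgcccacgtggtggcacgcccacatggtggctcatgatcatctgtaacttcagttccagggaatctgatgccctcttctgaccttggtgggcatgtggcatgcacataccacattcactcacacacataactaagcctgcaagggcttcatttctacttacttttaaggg
Psme1, chr14:55578244-55578543, plus strand: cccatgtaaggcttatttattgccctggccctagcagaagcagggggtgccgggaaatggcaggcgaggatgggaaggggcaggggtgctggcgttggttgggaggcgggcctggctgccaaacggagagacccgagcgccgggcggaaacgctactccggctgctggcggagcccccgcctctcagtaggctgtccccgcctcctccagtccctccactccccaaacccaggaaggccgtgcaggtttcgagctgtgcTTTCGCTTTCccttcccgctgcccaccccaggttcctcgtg
Psmb5, chr14:54617946-54618245, minus strand: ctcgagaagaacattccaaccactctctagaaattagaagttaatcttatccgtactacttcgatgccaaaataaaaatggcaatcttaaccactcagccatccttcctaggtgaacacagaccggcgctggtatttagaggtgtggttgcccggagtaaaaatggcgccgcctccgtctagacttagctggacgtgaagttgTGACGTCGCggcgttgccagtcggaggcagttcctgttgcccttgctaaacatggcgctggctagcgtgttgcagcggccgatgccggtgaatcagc

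Each motif was searched on both strands in all 32851 start regions of the table, and no region shown held more than 1 of the 3 motifs. The percentages below are shares of regions. A subunit was counted if any of its regions held the motif, and a gene can have more than 1 region (Psme2 had 2), so the units differ. The interferon-stimulated response element was in 3.44% of all regions, in Psme1 of the 5 induced subunits and in 4 of 34 other subunits with an entry (Psmb3, Psmd4, Psmd9 and Psmg4). The gamma-activated site was in 8.3% of all regions, in Psmb8 of the induced subunits and in Psmd2 and Psmg1 of the others. The antioxidant response element, a motif of NRF factors that are known to drive constitutive subunits, was in 12.4% of all regions, in none of the 5 induced subunits and in 6 of the 34 others, Psmb5 and Psmb6 among them. The Psmb9 region lay in the MHC region of chromosome 17 and shared 275 bases with the start region of Tap1, a peptide transporter gene read in the opposite direction, whose start site lay 226 bases away. Exons of Psmb9 and Tap1 shared 212 bases in the GENCODE annotation, and without a stated strand setting reads from these bases cannot be assigned to 1 of the 2 genes. Psmb8 followed at 34197721 to 34201454 on chromosome 17, Psmb10 lay at 105935735 to 105938444 on chromosome 8, and Psme1 and Psme2 stood 5911 bases apart on chromosome 14, all protein coding.

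Summed over genes, a library held 567403 to 721751 FPKM, and 10821 to 11622 genes reached 1 FPKM. The number of fragments behind a value is unknown. Jak1 stood at 86.7 FPKM in the wild-type and 74.4 in the knockout library of 45555, at 63.1 and 27.5 for 47298 and at 16.1 and 14.2 for 45566B, with 19.4 in 33373, 54.6 in 33377 and 23.0 in 46295, so its level checks the labels only weakly. Jak1 lies on chromosome 4, where the median gene differed by -0.42 (log2) between knockout and wild type of 47298. The epithelial label held unevenly, since 10 epithelial markers summed to 2486 to 2952 FPKM in 45566B, 33373 and 46295, to 100.0 to 414 in 47298 and 33377, and to 7.12 and 7.39 in 45555, where 1 of the 10 passed 1 FPKM. Of 10 mesenchymal and fibroblast markers, 9 had a log2 fold change below 0 in the isogenic comparison and 10 in the panel, none past the adjusted test, and they summed to 125 to 9085 FPKM in wild-type and 140.4 to 7633 in knockout libraries. In the 47298 pair their sum was 9085 FPKM for wild type against 2586 for knockout, and that of 5 adipocyte markers was 908 against 15.6 FPKM (0.668 to 331 in the other 7 libraries). These markers move with the groups compared, and their part in the proteasome values was not tested. Endothelial markers summed to at most 6.63 FPKM. Immune cells carry immunoproteasomes without stimulation, and of 13 immune cell markers only Cd68 passed 1 FPKM in any library. The pan-leukocyte marker Ptprc was at 0 in 5 libraries and at most 0.0293 FPKM in the other 4. Summed immune markers were 0.794 to 18.01 FPKM for wild type against 1.19 to 106 for knockout, where the highest value was Cd68, a lysosomal protein, at 106 FPKM in 46295 (0.426 to 17.7 in the other 8 libraries).

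Most constitutive proteasome genes were abundant and varied less between libraries than the induced subunits. The alpha ring genes had a median level of 169 FPKM (7 genes), the non-catalytic beta genes 182 (4 genes) and the constitutive cutting subunits 146 (3 genes). The 19S ATPases stood at 107 FPKM (6 genes). The Psmd genes, grouped as 19S non-ATPase subunits though chaperones of the cap are among them, stood at 79.4 (14 genes). The Psmg assembly chaperones were lower, at 24.8 FPKM (4 genes), and the lowest gene of all was Psmf1, which encodes the inhibitor PI31, at 9.67 FPKM. The ratio of the highest to the lowest library was 1.87 at the median of the 41 other subunits, from 1.28 for Psmb4 to 4.68 for Psma6. For the 5 induced subunits the same ratio was between 5.02 (Psme2) and 130 (Psmb8).

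Psmb8, the induced chymotrypsin-like cutting subunit also called LMP7, stood at 7.25 FPKM in the wild-type and 0.771 in the knockout library of 45555, at 21.7 and 36.5 for 47298 and at 92.9 and 7.04 for 45566B. The lines with 1 library had 84.8 FPKM (33373) and 100.0 (33377) in wild type and 31.4 (46295) in knockout. The level was thus 9.41 and 13.2 times lower in knockout within 45555 and 45566B but 1.68 times higher within 47298, and the 5 wild-type and 4 knockout libraries overlapped.

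Psmb9, the induced subunit LMP2, was at 4.96 and 0.587 FPKM (wild type, then knockout) in 45555, at 11.7 and 13.1 in 47298 and at 33.2 and 3.24 in 45566B. It was at 23.7 FPKM in 33373, 55.1 in 33377 and 13.5 in 46295. It had the pattern of its neighbour Psmb8, with knockout 8.45 times lower in 45555, 10.3 times lower in 45566B and 1.11 times higher in 47298.

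Psmb10, the induced subunit MECL-1, was at 14.2 and 7.77 FPKM (wild type, then knockout) in 45555, at 26.99 and 19.1 in 47298 and at 24.7 and 7.56 in 45566B. It was at 31.5 FPKM in 33373, 69.8 in 33377 and 22.5 in 46295. Of the 46 genes it was the only one lower in knockout in all 3 lines that were present in both states, by 1.83, 1.42 and 3.27 times. Over all genes tested in these lines, 13.3% were lower in all 3.

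Psme1, the alpha subunit of PA28, was at 68.1 and 27.8 FPKM (wild type, then knockout) in 45555, at 98.7 and 106 in 47298 and at 113 and 65.2 in 45566B. It was at 168 FPKM in 33373, 141 in 33377 and 80.3 in 46295. Psme2, the beta subunit, was at 116 and 48.5 FPKM in 45555, at 137 and 171 in 47298 and at 226 and 113 in 45566B, with 244 in 33373, 196 in 33377 and 102 in 46295. Both PA28 genes were lower in knockout of 45555 and 45566B, by 1.73 to 2.45 times, and 1.07 and 1.25 times higher in knockout of 47298. Psme2 has a retrogene copy, Psme2b, listed at 1.61 FPKM or less.

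**Figure D1:**
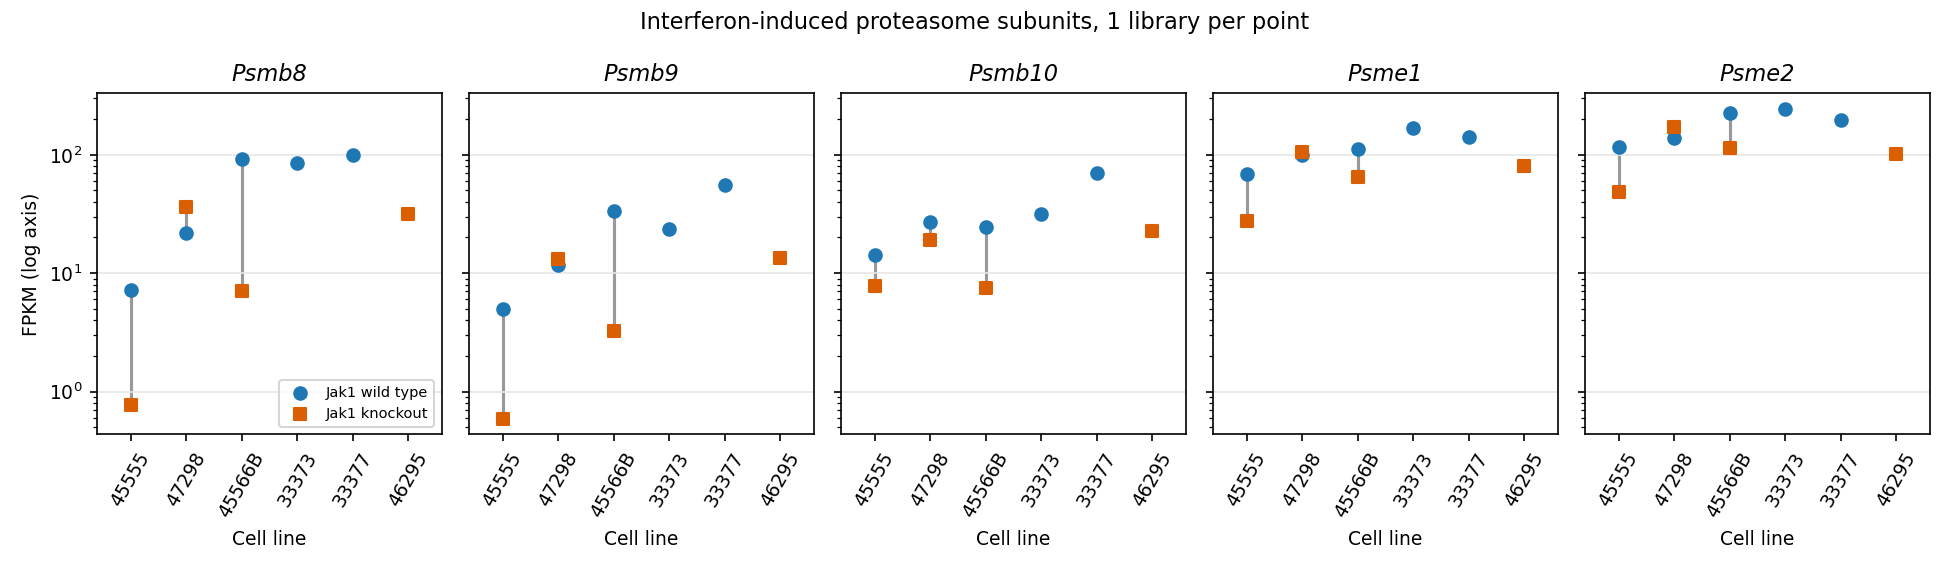
Level of the 5 interferon-induced proteasome subunits (FPKM, log axis) in each cell line, with circles for Jak1 wild-type and squares for Jak1 knockout libraries, 1 library per point, and a line joining the states of 1 cell line. The knockout square lies below the circle in 45555 and 45566B for all 5 genes. It lies farthest below for Psmb8, at 0.771 against 7.25 FPKM and 7.04 against 92.9 FPKM. In 47298 4 of the 5 squares lie above the circle.

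In the panel, both knockout libraries (45566B and 46295) lay below all 3 wild-type libraries (45566B, 33373 and 33377) for each of the 5 induced subunits and for 0 of the 41 others, where 6.43% of all genes tested did so. Psmb8 was at 92.6 ± 7.61 FPKM (SD, n = 3) in wild type and 19.2 ± 17.2 (SD, n = 2) in knockout, and its log2 fold change was -2.53 (SE 0.61) on the log2(FPKM + 1) scale used for all log2 fold changes here. Psmb9 had a log2 fold change of -2.21 (SE 0.64), Psmb10 of -1.46 (SE 0.64), Psme1 of -0.93 (SE 0.27) and Psme2 of -1.03 (SE 0.22). None of the 46 genes passed limma's test at an adjusted p of 0.05, as was so for 0% of the 11838 genes tested. The adjusted p was 0.754 for Psme2 and 0.999 for the other 4. At an unadjusted p under 0.05, 4 of the 5 induced subunits were lower (Psmb10 was not among them), against 1.33% of all genes, and 0 of the 41 others were lower or higher. In the panel the mesenchymal and fibroblast markers summed to 125, 1495 and 5030 FPKM for wild type against 210 and 140.4 for knockout. Without lines 33373 and 33377 the log2 fold changes kept their sign, but Psmb10 was then at -0.86. Without 45566B knockout the values were -1.53 for Psmb8, -1.32 for Psmb9 and -0.73 for Psmb10, and without 46295 they were -3.54, -3.09 and -2.19.

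Within the isogenic lines 45555 and 47298 the 2 lines went apart. The mean log2 fold change of Psmb8 was -0.75 (SE 0.85), made up of -2.22 in 45555 and 0.72 in 47298. Psmb9 had -0.88 (SE 0.63), Psme1 -0.58 (SE 0.45), Psme2 -0.47 (SE 0.51) and Psmb10, lower in both lines, -0.64 (SE 0.25). In limma no member passed (0% of 11704 genes passed), with adjusted p-values of 0.721 to 0.805 for the 5, and 0 of the 46 had an unadjusted p under 0.05, against 4.26% of all genes in the lower direction. All 5 had a log2 fold change below 0, as 52.2% of all genes had. Without 45555, Psmb8, Psmb9, Psme1 and Psme2 had log2 fold changes of 0.72, 0.14, 0.10 and 0.32.

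Over the 3 lines present in both states, all 5 induced subunits had a log2 fold change below 0, as 51.4% of all genes had, and again 0 of the 46 passed (0% of 12063 genes passed). Psmb10 had -0.95 (SE 0.27, unadjusted p = 0.0228, limma adjusted p = 0.762), Psmb9 -1.59 (SE 0.66) and Psmb8 -1.68 (SE 0.89), and lower values at an unadjusted p under 0.05 made up 1.86% of all genes. Without 47298 the values of Psmb8 and Psmb9 were -2.88 and -2.46, and without 45566B they were -0.75 and -0.88. The test of the difference between the panel and the isogenic effects passed for none of the 46 genes (0.041% of 12198 genes passed). For Psmb8 that difference was -1.78 (SE 1.15, limma adjusted p = 0.988), so a difference between the panel and the isogenic effect was not shown. It was -0.78 without 45566B knockout and -2.79 without 46295. Of the 41 others, 33 had a difference below 0 and 8 above, against 49.1% and 50.9% of all genes. Psmd2, a scaffold of the cap (-0.72, SE 0.28), was the only 1 of the 46 at an unadjusted p under 0.05, where 1.46% of all genes were lower and 2.41% higher.

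The induced share of each catalytic pair removes the scale of a library, since both genes come from it. Psmb8 made up 4.86% of the summed level of Psmb8 and Psmb5 in 45555 wild type and 0.420% in knockout, 42.7% and 4.52% in 45566B, and 14.9% and 17.1% in 47298. It made up 33.1% in 33373, 40.2% in 33377 and 25.7% in 46295. Psmb5 had its lowest level in 46295, at 90.8 FPKM, which raises the Psmb8 share there. For Psmb9 with Psmb6 the shares were 4.36% and 0.471% in 45555, 20.3% and 2.25% in 45566B and 12.2% and 11.9% in 47298, with 19.2% in 33373, 34.6% in 33377 and 10.98% in 46295. For Psmb10 with Psmb7 they were 8.41% and 3.64% in 45555, 10.1% and 3.43% in 45566B and 15.7% and 8.60% in 47298, with 15.4% in 33373, 29.1% in 33377 and 10.2% in 46295. The 3 pairs did not shift to the same extent, and in 45566B wild type the share ran from 10.1% for Psmb10 to 42.7% for Psmb8. In every library the constitutive gene of each pair was the higher one.

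**Figure D2:**
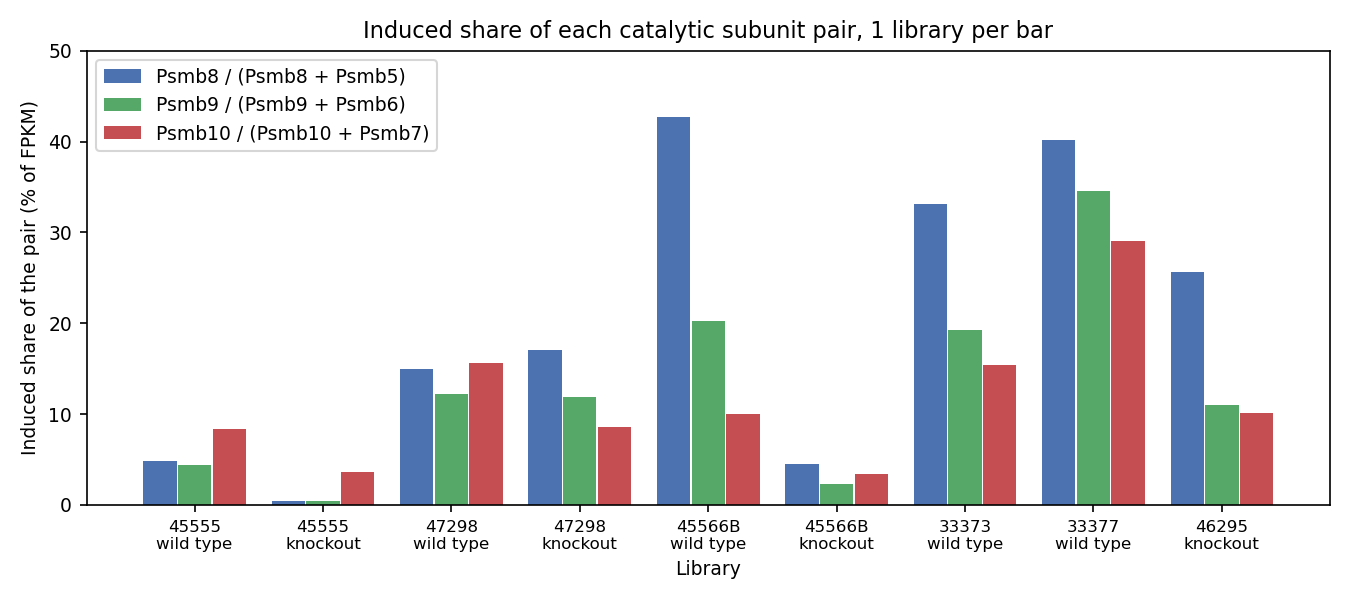
Share of the induced subunit in the summed FPKM of each catalytic pair (percent, bars from 0) for the 9 libraries, 1 library per bar. The shares of Psmb8 and Psmb9 are lowest in 45555 knockout, at 0.420% and 0.471%, and the highest share is that of Psmb8 in 45566B wild type, at 42.7%, and 47298 knockout stays near its wild type for Psmb8 and Psmb9.

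Genes that act before and beside the immunoproteasome were compared from lists. Among 13 interferon signal factors, 11 of 12 tested were lower in knockout in the isogenic comparison, where 52.2% of all genes were. Their median log2 fold change was -0.62 against -0.02 over all genes. In the panel 7 of 13 were lower (47.7% of all genes), with a median of -0.27 against 0.02. Jak1, the gene knocked out, was counted among the lower ones in both comparisons. Irf9 was at 13.3 and 1.78 FPKM (wild type, then knockout) in 45555, at 23.4 and 7.35 in 47298 and at 43.7 and 4.03 in 45566B. Stat2 was at 8.99 and 2.15 FPKM in 45555, at 29.8 and 10.5 in 47298 and at 30.8 and 4.46 in 45566B. Line 47298 therefore had lower Stat2 and Irf9 in knockout, while 4 of the 5 induced proteasome genes were higher there. Stat2 lies on chromosome 10, where the median gene differed by -0.29 (log2) between knockout and wild type of 47298. No gene of this list passed the test in any comparison (limma, smallest adjusted p = 0.0749, for Irf9 in the panel).

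Of 12 class I peptide supply genes, all 12 were lower in knockout in the panel, 8 of them at an unadjusted p under 0.05 and 0 after adjustment, against 47.7% and 1.33% of all genes (median log2 fold change -1.21 against 0.02 over all genes). In the isogenic comparison, 5 of 11 were lower and 6 higher (median 0.24), against 52.2% and 47.8% of all genes. Tap1 was at 5.92 and 2.97 FPKM in 45555, at 9.97 and 8.70 in 47298 and at 44.7 and 6.29 in 45566B, with a panel log2 fold change of -1.98 (SE 0.34, limma adjusted p = 0.420). B2m, the light chain of class I molecules, was at 660 and 501 FPKM in 45555, at 995 and 997 in 47298 and at 3632 and 656 in 45566B. Tapbp, which loads peptides, was at 34.3 and 11.4 FPKM in 45555, at 73.8 and 124 in 47298 and at 169 and 50.2 in 45566B, so these genes too were not lower together in 47298 knockout.

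The 41 other subunits were on balance higher in knockout of the isogenic lines. Their median level was 93.4 and 118 FPKM (wild type, then knockout) in 45555 and 79.0 and 91.4 in 47298. It was 90.8 to 108 FPKM in the libraries of the other lines. The 47298 wild-type library was thus the lowest of all and 45555 knockout the highest. Within 45555, 38 of the 41 were higher in knockout, with a median log2 difference of 0.33 (1.26-fold), while 45.3% of all genes were higher and the median of all genes was -0.02. Within 47298, 30 of 41 were higher, with a median of 0.29 (1.22-fold), against 50.6% of all genes and a median of 0.01. Within 45566B, 21 were higher and 20 lower, with a median of 0.01. In both isogenic lines together, 29 of the 41 were higher and 2, Psmb1 and Psmg1, were lower, where 26.4% and 30.5% of all genes were. Among genes of at least 10 FPKM, a limit set after the data were seen, 49.6% were higher in 45555 knockout and 53.4% in 47298 knockout. As fitted, 32 of the 41 were above 0 in the isogenic comparison (47.8% of all genes) and 32 over the 3 lines (48.6% of all genes). No gene among the 41 passed the adjusted test, and 0 of the 41 had an unadjusted p under 0.05 in the isogenic, panel or paired test, against 2.24%, 0.49% and 1.51% of all genes in the higher direction.

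By role, the higher values took in most of the Psmc and Psmd genes of the 19S cap. Of 14 Psmd genes, which include chaperones of the cap such as Psmd5 and Psmd10, 13 were higher in knockout of both isogenic lines. The 14 had medians of 0.41 in 45555 and 0.41 in 47298. Of 6 ATPases 5 were higher in both lines, with medians of 0.34 and 0.45. Psmc4, an ATPase, was at 66.8 and 97.6 FPKM (wild type, then knockout) in 45555, at 53.3 and 92.4 in 47298 and at 129 and 134 in 45566B, and its isogenic log2 fold change of 0.66 (SE 0.26, limma adjusted p = 0.721) was the highest of the 46 genes. Psmd5, a chaperone of the cap's base, was at 40.8 and 71.7 FPKM in 45555, at 26.4 and 35.3 in 47298 and at 38.9 and 38.8 in 45566B. Psmd1, the large scaffold of the cap, was at 66.7 and 95.4, 52.1 and 83.5, and 87.8 and 84.0 FPKM in the same order. Psmd2, the other scaffold, was at 107 and 154 FPKM in 45555, at 99.5 and 158 in 47298 and at 158 and 156 in 45566B. For Psmc4 and Psmd2 the wild-type libraries of 45555 and 47298 were the 2 lowest of the 9, and Psmd5 and Psmd1 were highest in 45555 knockout.

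The 3 constitutive cutting subunits were higher in both isogenic knockout libraries. Psmb5, the chymotrypsin-like subunit that Psmb8 replaces, was at 142 and 183 FPKM in 45555, at 124 and 177 in 47298 and at 125 and 149 in 45566B. It was at 172 FPKM in 33373, 149 in 33377 and 90.8, its lowest level, in 46295. Psmb6, the caspase-like subunit, was at 109 and 124 FPKM in 45555, at 84.7 and 96.4 in 47298 and at 131 and 140.4 in 45566B. Psmb7, the trypsin-like subunit, was at 155 and 205 FPKM in 45555, at 145 and 202 in 47298 and at 221 and 213 in 45566B. Psmb5 and Psmb6 were thus higher in knockout in all 3 lines, as 14 of the 41 other subunits and 14.3% of all genes were. Over these lines Psmb5 had a log2 fold change of 0.38 (SE 0.16, limma adjusted p = 0.762), and in the panel of -0.34 (SE 0.31). Mir686, a microRNA gene, lies inside a Psmb5 exon, and the sources used here do not give how fragments shared by both were assigned. Psmb7 shared 405 exon bases with Nek6 on the opposite strand, which carries the same limit as Psmb9 and Tap1.

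**Figure D3:**
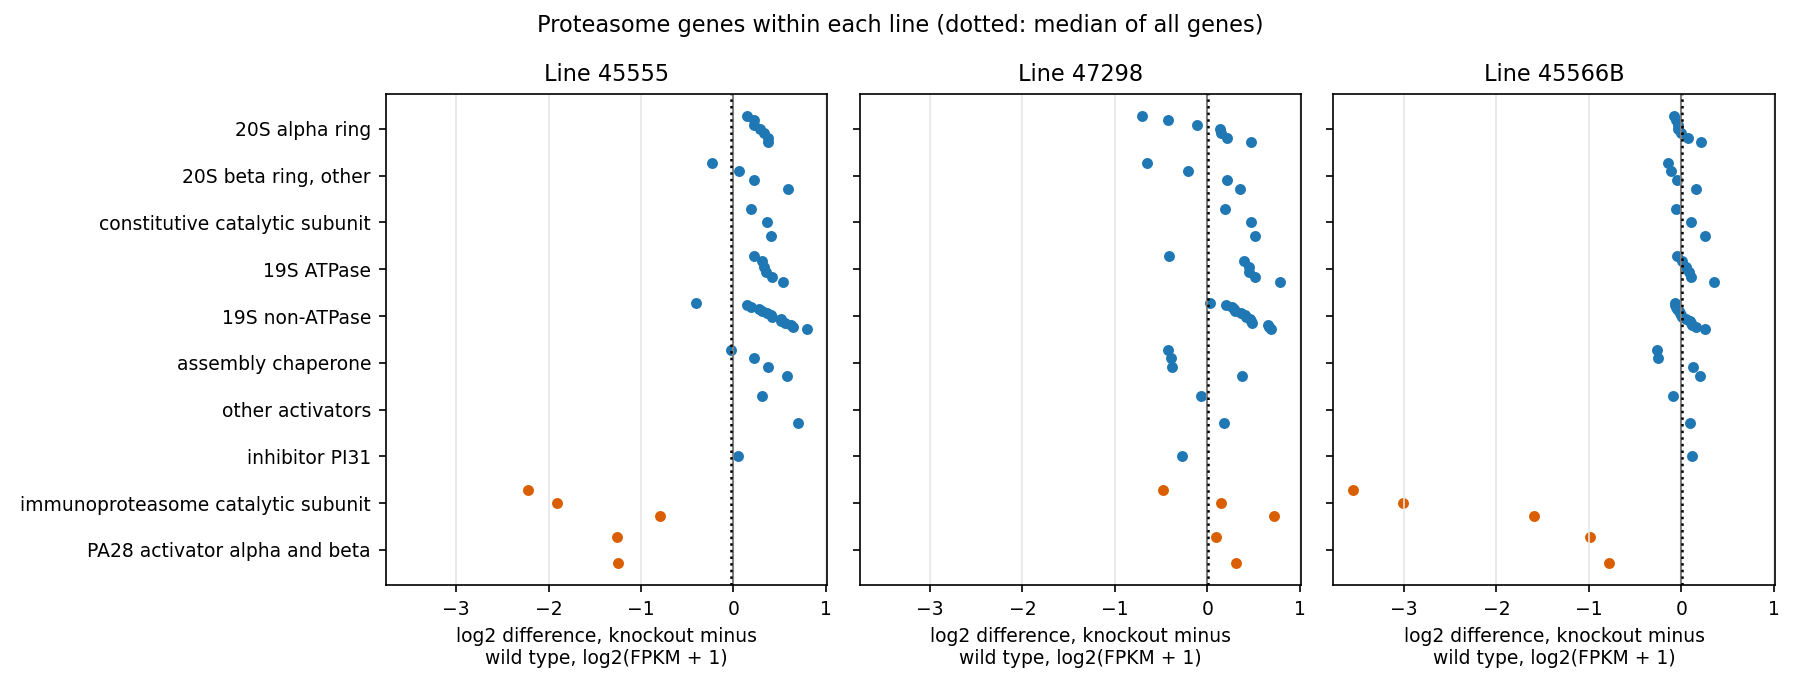
Difference of log2(FPKM + 1) between the knockout and the wild-type library within lines 45555, 47298 and 45566B, with 1 point per gene, grouped by role. Orange points are the 5 induced subunits, blue points the other 41, and the dotted line is the median of all genes (-0.02, 0.01 and 0.01). Blue points lie mostly right of 0 in 45555 (38 of 41) and 47298 (30 of 41) and around 0 in 45566B (21 of 41).

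Activators, the inhibitor and the assembly chaperones gave mixed directions. Psme3, the nuclear activator PA28 gamma, which is not known as an interferon target, was at 35.7 and 58.3 FPKM in 45555, at 35.0 and 33.2 in 47298 and at 52.1 and 55.5 in 45566B. Psme4, the activator PA200, was at 18.5 to 25.2 FPKM in 8 libraries and at 44.7 in 46295. Psmf1 kept within 8.46 to 11.3 FPKM. Of the 4 Psmg chaperones, Psmg1, Psmg3 and Psmg4 were lower in 47298 knockout (log2 differences of -0.39, -0.42 and -0.38) and Psmg2 was higher (0.37). In 45555 Psmg3 and Psmg4 were higher (0.58 and 0.37), so the same chaperones went opposite ways in the 2 lines.

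In the panel the other subunits were level on balance, with 25 of 41 above 0 and a median log2 fold change of 0.06, beside 52.3% and 0.02 for all genes tested. Both knockout libraries lay above all 3 wild-type libraries for Psma7, an alpha ring subunit, and for no other member, against 7.67% of all genes. The lowest of these genes was Psmd6, a cap subunit, at 68.1, 75.9 and 75.6 FPKM for wild type (45566B, 33373 and 33377) against 81.5 and 35.7 for knockout (45566B and 46295), a log2 fold change of -0.43 (SE 0.39). Psmb2, a beta ring subunit, had -0.27 (SE 0.37) and Psmc5, an ATPase, -0.23 (SE 0.31). The highest was Psme4, the activator PA200 (0.53, SE 0.34), followed by Psma1, an alpha ring subunit (0.39, SE 0.32), Psmd10, the cap chaperone gankyrin (0.34, SE 0.31), and Psmb1 (0.31, SE 0.26), each with a limma adjusted p of 0.999. The median of the 41 was 0.17 without 45566B wild type, -0.12 without 45566B knockout and -0.11 without 33373 and 33377, so its sign changed with single libraries.

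Psma6, the other subunit with the widest range over libraries, shares chromosome 12 with Psma3, also of the alpha ring, and Psmc1, an ATPase, which were singled out after their values were seen. Psma6 was at 405 and 403 FPKM (wild type, then knockout) in 45566B, at 142 and 86.6 in 47298, at 173 and 191 in 45555, and at 142 in 33373, 215 in 33377 and 185 in 46295. Psma3 was at 280 and 273 FPKM in 45566B and at 94.5 and 70.0 in 47298, and Psmc1 at 251 and 266 and at 83.5 and 62.3. All 3 were highest in the 45566B libraries and lowest in 47298 knockout.

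The whole of chromosome 12 had the same order. As a deviation of a library from the mean of the other 8 on the log2 scale, less that library's median over all genes, the median of the 418 chromosome 12 genes was 0.90 in 45566B wild type, 0.88 in 45566B knockout and -0.996 in 47298 knockout. It was -0.31 in 47298 wild type. The 3 subunits had median deviations of 1.10, 1.19, -1.16 and -0.65 in these 4 libraries. Measured against their chromosome, Psma6 deviated by 0.30 in 45566B wild type and by -0.27 in 47298 knockout, and Psma3 by 0.14 and -0.16.

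Chromosome 14 carries Psme1, Psme2, Psmb5, Psmc6 and Psmd6, and its 394 genes had a median deviation of -0.69 in 46295 and between -0.31 and 0.245 in the other 8 libraries. In 46295 the deviation was -0.69 for Psmb5, -0.58 for Psmc6, an ATPase singled out after its values were seen, -1.04 for Psmd6, -0.09 for Psme1 and -0.43 for Psme2. These values move with the panel result of the PA28 genes. Less their chromosome's median, Psme2 stood at 1.12, 0.79 and 0.46 in the wild-type libraries 45566B, 33373 and 33377 and at -0.20 and 0.26 in 45566B and 46295 knockout, and Psme1 at 0.73, 0.92 and 0.66 against -0.35 and 0.60. The knockout libraries were still the lower ones for both genes, with 46295 close to 33377. Psmb2, the member on chromosome 4, was at 152 and 177 FPKM in 45555, 150.1 in 33377 and 68.2 to 108 in the other 6 libraries, and the median of the 706 chromosome 4 genes was 0.46, 0.47 and 0.44 in the first 3 and -0.37 to 0.12 in the others.

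Within the 47298 pair, the median gene differed by more than 0.1 between knockout and wild type on chromosomes 4, 10, 11, 12 and 18, by -0.57 on chromosome 12 and by 0.11 on chromosome 11, which holds 8 of the other subunits. Leaving out the members on these chromosomes, 22 of the remaining 28 were higher in 47298 knockout and the median was 0.30. In the 45555 pair no chromosome passed that limit. In the 45566B pair chromosome 14 did (0.20), and without its members 18 of 38 were higher. What sets the chromosome-wide levels was not tested.

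**Figure D4:**
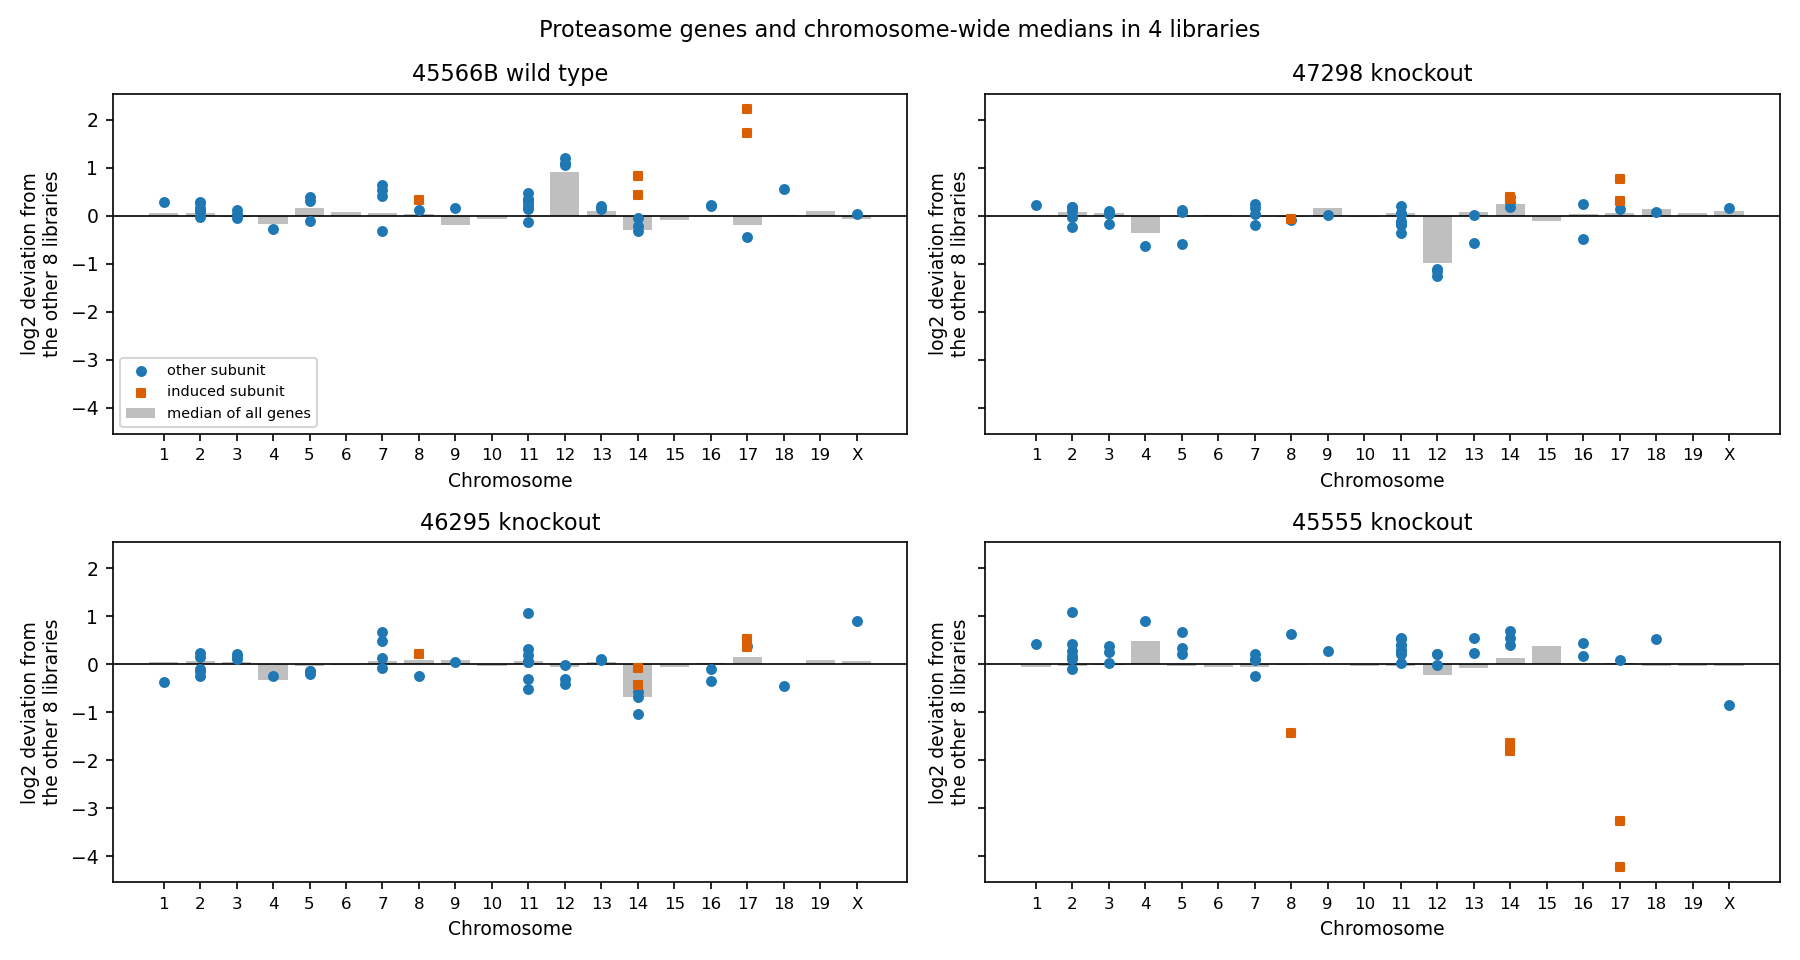
Deviation of each proteasome gene (points) from the mean of the other 8 libraries, log2(FPKM + 1) less the library's median, by chromosome in 4 libraries, with grey bars for the median of all genes on that chromosome. The 3 members on chromosome 12 lie near its bar, which is 0.90 in 45566B wild type and -0.996 in 47298 knockout, and in 46295 knockout the bar of chromosome 14 is at -0.69.

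Genes that work with the proteasome were taken from a list of 27 symbols, older and newer names included, of which 23 were in the table. In the isogenic comparison, 13 were higher and 10 lower (median log2 fold change 0.19), near the 47.8% of all genes above 0. Of the 23, 1 was higher and 0 lower at an unadjusted p under 0.05, where 2.24% and 4.26% of all genes were, and 0 passed after adjustment. In the panel 13 were higher and 10 lower (0.11), beside 52.3% of all genes above 0. Uchl5 and Usp14, deubiquitinases of the cap, and Adrm1, a ubiquitin receptor of the cap, had the smallest p in the isogenic comparison. Uchl5 was at 18.1 and 31.8 FPKM in 45555 and at 10.6 and 18.9 in 47298 (log2 fold change 0.78, SE 0.23, limma adjusted p = 0.721). Usp14 was at 27.9 and 43.3 and at 21.6 and 35.98 FPKM, and Adrm1 at 60.9 and 94.1 and at 47.5 and 78.3. In 45566B these 3 genes were at 46.2 and 49.4, 38.8 and 43.4, and 75.2 and 85.9 FPKM. They were higher in knockout in each of the 3 lines, as 14.3% of all genes were. The rise was smaller in 45566B than in 45555 and 47298. Because the 3 genes were picked by their p in 45555 and 47298, larger rises there were favoured. The difference between lines was not tested for them. In the panel their log2 fold changes were 0.41 (Uchl5), 0.18 (Usp14) and -0.32 (Adrm1).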

How the data were processed

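RNA sequencing values of 9 cell line libraries were used. The authors deposited FPKM for each gene symbol. The submitters' processing notes name the mm10 build and, in no order, Cuffnorm, Cufflinks 2.2, TopHat2 2.1 and cutadapt. Not given in the sources used here are the annotation, strand setting and library scaling. The larger of 2 tables was used, since the smaller holds 4 of its columns with identical values, and 4 rows with repeated, date-like names were left out. Values were tested as log2(FPKM + 1) by limma 3.58.1 (R 4.3.3), two-sided, for genes whose mean in the comparison reached 1 FPKM, with variances that follow the mean and Benjamini-Hochberg adjustment over all genes at 0.05. Groups were the labelled genotypes. The line was a block in the isogenic comparison and over the 3 lines, where the pairing comes from the shared line and the libraries of a line deviated together (correlations 0.70, 0.40 and 0.80 for 45555, 47298 and 45566B), and the panel had no block. The difference of effects came from 1 fit of all 9 libraries. The script was tested on simulated data. Positions are GENCODE M21 (GRCm38). Members, lists and tests were chosen with earlier results of these data known. Named were the catalytic, activator, inhibitor and chaperone genes, the 3 highest and lowest other members per comparison, and genes among the 3 with the smallest p of each list, of which 1 is not reported here. The chromosome medians, the 10 FPKM filter and the motifs were added after the values were seen.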

Additional observations from a re-analysis of the deposited data

Results flagged for a closer look

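In 4 of 92 sets (46 genes in wild-type and in knockout libraries) 1 library stood far from the rest of its group by Dixon's ratio, where chance gives about 1 in 20 sets. All 4 were among the knockout libraries. Psme4 was at 44.7 FPKM in 46295 against 23.6 in the next library, and Psmd2 was at 126 FPKM in 46295 against 154 in the next. Psmc4 was at 134 FPKM in 45566B against 97.6 in the next, and Psmd3, a cap subunit, was at 70.3 FPKM in 47298 against 94.1 in the next. The test of the difference between the panel and isogenic effects passed for none of the 46 genes.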

How the results depend on the processing

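Under the alternatives tried, 0 of the 46 genes passed in any comparison. The median of the 41 other subunits kept its sign in the isogenic fits (0.29 to 0.36, with 0.36 after median scaling of libraries) and over the 3 lines (0.15 to 0.31). In the panel it was 0.17 without 45566B wild type, -0.12 without 45566B knockout, -0.026 without 33373, 0.18 without 46295 and -0.11 without 33373 and 33377. The difference of effects was -0.38 without 45566B knockout and -0.12 without 46295. The number of genes called over the whole table was 0 in the isogenic, panel and 3-line fits. It was 4 with a pseudocount of 0.1 in the isogenic and in the panel fit, 4 with a 10 FPKM filter in the isogenic fit, and 6 over the 3 lines without 47298. With no replicate block the isogenic fit called 6 genes, and over the 3 lines leaving out the block changed no call of the 46 genes. The difference of effects called 5 genes, 19 with no filter, 2 with the 10 FPKM filter and 0 to 2 when 1 panel library among 45566B knockout, 33373, 33377 and 46295 was left out. Without 45555 the isogenic values of Psmb8, Psmb9, Psme1 and Psme2 turned to 0.72, 0.14, 0.10 and 0.32, and no test was possible with 1 line. The depth behind FPKM values is unknown, so the precision of levels near 1 FPKM cannot be given, such as Psmb8 and Psmb9 in 45555 knockout.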
